A study of Mus musculus with 10 samples.

Results

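Sall1, the zinc finger factor that sets microglia apart from other macrophages, was lower in every midbrain than in every striatum library of 2 experiments. Within each experiment, the shared macrophage factor Irf8 also showed this order, as did 6.04% of 14053 genes. Sall1 passed the cutoff of the study in the first experiment. In the second, its log2 fold change was −0.82 without 2 libraries whose labels conflict. Adding these libraries under their titled regions gave −0.056. The other placement, opposite to the titles, gave −1.02. The labels do not decide between the placements. Cebpb, a factor that macrophages of many tissues share, had higher levels in the midbrain in both experiments. It passed the cutoff in the second experiment, whereas the shared factors Spi1, Irf8, Runx1, Maf and Cebpa passed in neither. The set comprised 9 genes fixed by name (Sall1, Spi1, Irf8, Runx1, Mef2a, Mef2c, Maf, Cebpa and Cebpb) of the 53715 genes counted, and each of the 9 names matched a single gene identifier. When the experiments were tested together, limma gave none of the 9 an adjusted p under 0.05, against 1.06% of 14053 genes. DESeq2 gave it to Sall1 and Cebpb, but its share of all genes is not reported here.

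RNA was sequenced from microglia taken from the midbrain (Mdb) and the striatum (Str) of untreated C57BL/6 mice aged 3 months. The cells were released by enzymatic digestion, cleared on Percoll and held on CD11b magnetic beads. The 3′ ends of their poly-A RNA were read as bulk libraries with MARS-seq. CD11b is also carried by monocytes, neutrophils and border macrophages, so the beads do not separate these cells from microglia. The study checked an aliquot by flow cytometry and reported nearly all viable cells to be microglia, with a small share of infiltrated myeloid cells. The pilot experiment (Exp 1) gave 2 midbrain and 2 striatum libraries, and the second experiment (Exp 2) gave 2 of each whose title and file name name the same region. A further 2 libraries of Exp 2, whose labels disagree on the region, entered no comparison. The study names fewer mice than libraries, so midbrain and striatum libraries come from shared mice, but the labels do not say which ones share a mouse. The p-values therefore measure only the spread between these libraries.

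Counts per assigned library ranged from 575709 to 8463782, and the shallowest was replicate 3 of the striatum in Exp 2. All 14 microglial markers, among them P2ry12, Tmem119 and Cx3cr1, were detected, with a summed level of 18093 to 33516 CPM (counts scaled to library size with TMM factors) per library, against 9.51 to 35.1 CPM for 10 neuronal markers. Myelin RNA was plentiful, with 5348 to 10640 CPM over 5 oligodendrocyte markers. In each experiment, markers of monocytes (8 genes), neutrophils (12), border macrophages (10) and T and NK cells (10) had higher summed levels in every midbrain library than in every striatum library. The monocyte sum was 220.5 to 273 CPM in the midbrain and 97.9 to 98.6 CPM in the striatum in Exp 1, and 555 to 2727 CPM and 124 to 193 CPM in Exp 2. In a bulk sample, fewer cells of a type and less RNA per cell cannot be told apart.

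Microglia are the resident macrophages of the brain parenchyma. Their identity rests on a shared macrophage programme, in which PU.1 (encoded by Spi1) opens enhancers together with IRF8, RUNX1, C/EBP and MAF proteins, and on a brain-specific layer, in which SALL1 represses programmes of other macrophages and MEF2 proteins bind many microglial enhancers. Signals of the brain, TGF-beta among them, maintain this second layer, and microglia taken out of the brain lose Sall1 in culture.

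The start regions of Sall1, Irf8, Mef2a and Cebpb are shown because Irf8 and Mef2a followed Sall1 across the libraries and Cebpb ran against it. Spi1, which ran against Sall1 more closely, had no window in the promoter reference. Each line is the strand of transcription over the 250 bases before the outermost annotated start (RefSeq, GRCm38.p6), and capitals mark a match to any of 7 short motifs.
Sall1, chr8:89044163-89044412, minus strand: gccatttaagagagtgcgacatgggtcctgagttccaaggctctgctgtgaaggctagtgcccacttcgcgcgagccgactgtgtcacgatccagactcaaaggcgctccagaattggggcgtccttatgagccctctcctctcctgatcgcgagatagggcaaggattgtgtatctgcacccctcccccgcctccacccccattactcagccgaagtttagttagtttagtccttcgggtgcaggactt
Irf8, chr8:120736108-120736357, plus strand: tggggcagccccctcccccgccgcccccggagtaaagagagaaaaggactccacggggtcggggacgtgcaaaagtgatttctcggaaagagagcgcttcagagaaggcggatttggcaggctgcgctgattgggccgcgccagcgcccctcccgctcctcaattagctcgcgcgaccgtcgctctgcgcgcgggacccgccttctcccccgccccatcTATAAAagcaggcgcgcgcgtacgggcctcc
Mef2a, chr7:67372859-67373108, minus strand: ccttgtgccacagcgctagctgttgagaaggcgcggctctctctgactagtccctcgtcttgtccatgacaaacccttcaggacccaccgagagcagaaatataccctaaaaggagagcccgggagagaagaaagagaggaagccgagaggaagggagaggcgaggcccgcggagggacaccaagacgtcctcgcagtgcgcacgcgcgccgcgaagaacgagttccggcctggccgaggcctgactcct
Cebpb, chr2:167688665-167688914, plus strand: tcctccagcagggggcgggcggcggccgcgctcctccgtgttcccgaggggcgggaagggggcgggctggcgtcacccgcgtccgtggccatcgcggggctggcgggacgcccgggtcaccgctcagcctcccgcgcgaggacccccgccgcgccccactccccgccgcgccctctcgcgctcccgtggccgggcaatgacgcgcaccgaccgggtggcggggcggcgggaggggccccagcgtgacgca
Searched on both strands were PU.1 (GAGGAAGT), C/EBP (TTGCNNAA), the MEF2 and the IRF motif, RUNX (TGTGGT), MAF (TGCTGA) and the TATA box (TATAAA), of which a C/EBP match can include the MAF motif and a MEF2 match the TATA box. They occur in 2.44%, 9.57%, 3.2%, 2.97%, 14.0%, 16.1% and 12.4% of 32817 windows of this length. Of the 4 windows, only that of Irf8 held a match, a TATA box at 31 to 26 bases before the start. The window of Cebpb was the richest in G and C, at 81.6% with 41 CpG pairs, against 56.4% and 13 for Sall1, 67.2% and 29 for Irf8, 61.6% and 21 for Mef2a, and a median of 52.4% G and C over all windows.

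The question put to the 9 genes was whether the factors of microglial identity differ between the regions, and whether Sall1 departs from the factors that all macrophages share. Within each experiment a gene was called at an unadjusted p under 0.01 (voom and limma), the cutoff of the study. In Exp 1, 1 of 9 factors was called (Sall1, lower in the midbrain), against 2.64% of the 14972 genes tested, with 0.548% called lower and 2.09% higher. In Exp 2, 1 of 9 was called (Cebpb, higher in the midbrain), against 3.47% of 13486 genes, with 0.593% called lower and 2.88% higher. After adjustment 0 of 9 passed at 0.05 in either experiment, against 0.00668% of genes in Exp 1 and 0.356% in Exp 2. An exact permutation test of 2 against 2 libraries cannot go below p = 0.333, so these calls rest on limma's spread, which is shared across genes. In the joint fit of 4 midbrain and 4 striatum libraries, with the experiment as a covariate, 0 of 9 had an adjusted p under 0.05, against 1.06% of 14053 genes. Without adjustment, limma put 3 factors under 0.05, against 14.6% of all genes. They were Sall1 and Mef2a, lower in the midbrain (5.21% of genes), and Cebpb, higher in the midbrain (9.35%). DESeq2 gave 2 with an adjusted p under 0.05 (Sall1 and Cebpb). The share of all genes that DESeq2 called is not reported here, so this count has no such measure beside it. In the joint fit the 9 factors had a median log2 fold change of 0.01, and all genes one of 0.04. The midbrain libraries were all below the striatum libraries for 3 of 9 factors in Exp 1 (Sall1, Irf8 and Mef2a; 19.8% of genes) and for 2 of 9 in Exp 2 (Sall1 and Irf8; 17.2%). They were all above them for 2 of 9 in Exp 1 (Spi1 and Cebpb; 23.1%) and for 2 of 9 in Exp 2 (Runx1 and Cebpb; 23.5%). All 9 passed the filter on low counts in every fit, and the lowest count of any of them was 103, for Cebpa in the shallowest library.

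**Figure D1:**
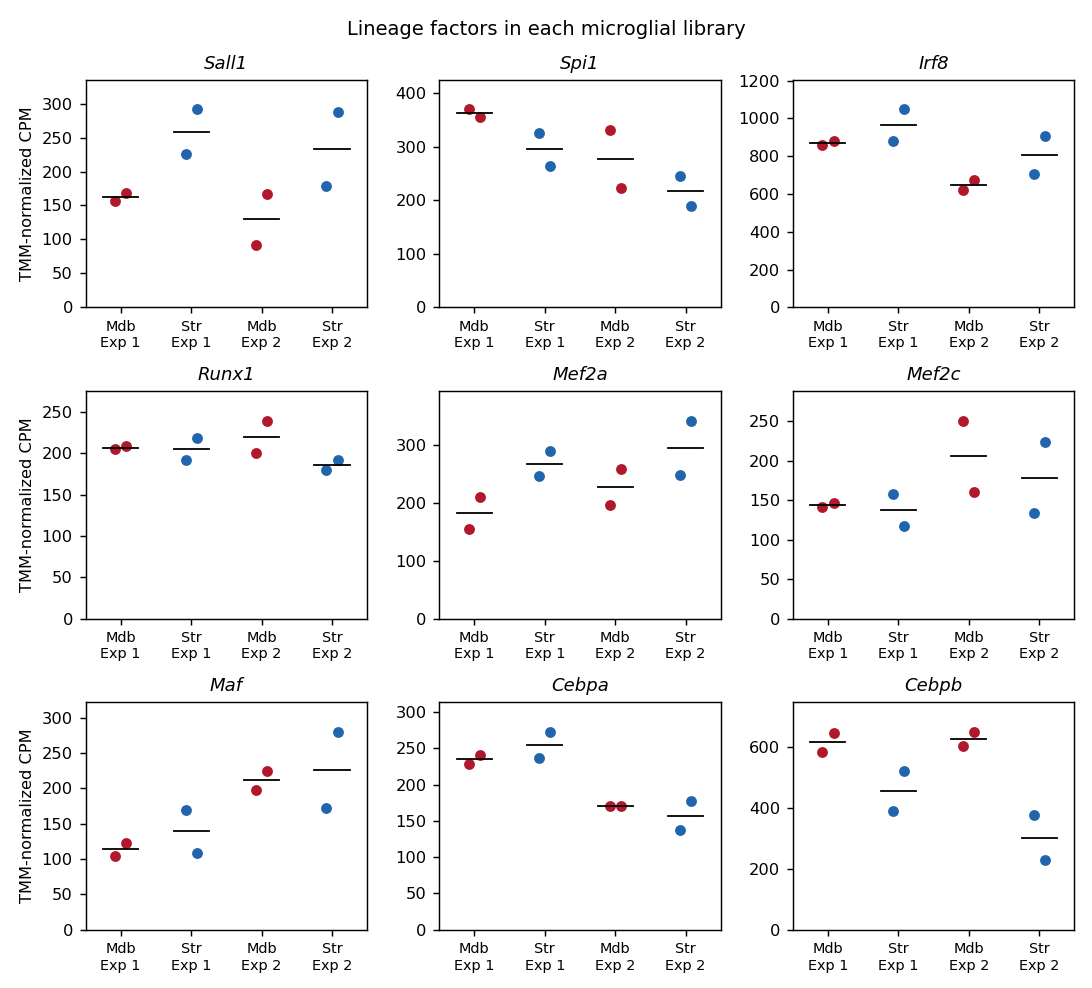
TMM-normalized CPM of the 9 factors in each library (points; red midbrain, blue striatum; the line is the mean of 2 libraries), with the vertical axes starting at 0. The midbrain points lie below the striatum points of their experiment for Sall1 and Irf8 in both experiments, and above them for Cebpb.

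Sall1 (ENSMUSG00000031665.7, chromosome 8 of GRCm38, 89027235 to 89044162, minus strand) was at 157 and 168 CPM in the midbrain and at 226 and 291 CPM in the striatum of Exp 1. In Exp 2 it was at 91.9 and 167 CPM in the midbrain and at 178 and 287 CPM in the striatum. Every midbrain library was thus below every striatum library of its experiment. In both experiments together, 2 of 9 factors (Sall1 and Irf8) showed this order, against 6.04% of 14053 genes. The mean midbrain level was 0.629 times the striatum mean in Exp 1 and 0.557 times in Exp 2.

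For Sall1 the log2 fold change in Exp 1 was −0.70 with a standard error of 0.20, and an unadjusted p of 0.00609 in limma (adjusted p = 0.331). In Exp 2 the estimate was −0.82 with a standard error of 0.35, and an unadjusted p of 0.0375 (adjusted p = 0.445), which missed the cutoff. The joint value was −0.71 (standard error 0.20, 95% interval −1.15 to −0.27, adjusted p = 0.123), at percentile 3.18 of the log2 fold changes of all genes. The replicates of Exp 2 lay far apart, 1.82-fold in the midbrain and 1.61-fold in the striatum, against 1.07-fold and 1.29-fold in Exp 1.

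Single libraries decided which side of the cutoff Sall1 fell on. Leaving out a library within an experiment leaves its group with 1 library, which is assumed to vary as the 2 libraries of the other region do, so such p-values, here and for the genes that follow, show how far a call depends on a library and support no difference. Without replicate 1 or replicate 2 of the midbrain, the p of Sall1 in Exp 1 was 0.0793 or 0.053 (limma), with log2 fold changes of −0.64 and −0.74. Without replicate 3 of the midbrain in Exp 2, the p there was 0.000827 (log2 fold change −1.17) and the adjusted p of the joint fit 0.0487. Without replicate 1 of that group, the library with the lowest Sall1, the log2 fold change of Exp 2 was −0.34 in place of −0.82. Without the shallowest library it was −0.53, and the joint value −0.64 (adjusted p = 0.294 from limma).

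The homeostatic markers had the same direction. Of the 14 microglial markers, 14 had a negative log2 fold change in the joint fit, with a median of −0.56 and a highest value of −0.004. In each experiment, 13 of 14 were negative. Jointly, 2 were called lower at an adjusted p under 0.05, against 0.0854% of genes (Siglech, a lectin, and Olfml3, a secreted matrix protein). The summed level of the 14 was 18093 and 20718 CPM in the midbrain and 25057 and 26678 CPM in the striatum in Exp 1, and 19829 and 22166 CPM against 28339 and 33516 CPM in Exp 2. The part of other CD11b-positive cells in the lower level of Sall1 was not tested.

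The MEF2 factors of the set, Mef2a and Mef2c, had joint estimates of opposite sign, and neither passed after adjustment. MEF2 proteins are MADS-box activators that bind AT-rich sites, and Mef2c is also transcribed in neurons, endothelium and B cells. Mef2a (ENSMUSG00000030557.17) was at 155 and 209.8 CPM in the midbrain and 246 and 289 CPM in the striatum of Exp 1, without overlap. The levels in Exp 2 were 196 and 258 CPM in the midbrain and 249 and 342 CPM in the striatum, where the groups overlapped. Jointly, limma gave a log2 fold change of −0.45 (SE 0.16, adjusted p = 0.226), with an interval of −0.81 to −0.10. In Exp 1 it missed the cutoff, with an unadjusted limma p of 0.017, and passed it without replicate 1 or replicate 2 of the striatum (2.36e-06 and 0.00778), with 1 striatum library left. Without replicate 1 of the midbrain its log2 fold change in Exp 1 was −0.37 in place of −0.61. Reads in the 302 exon bases that Mef2a shares with the antisense gene Lysmd4 were not assigned to either gene.

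Mef2c (ENSMUSG00000005583.16) was at 142 and 146 CPM in the midbrain and 158 and 117 CPM in the striatum of Exp 1. In Exp 2 it spread from 134 to 251 CPM, with the highest level in replicate 1 of the midbrain and the lowest in replicate 1 of the striatum. The groups overlapped in both experiments, and the joint log2 fold change was 0.20 with a 95% interval of −0.23 to 0.62. Without replicate 1 of the striatum in Exp 2 it was −0.03.

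**Figure D2:**
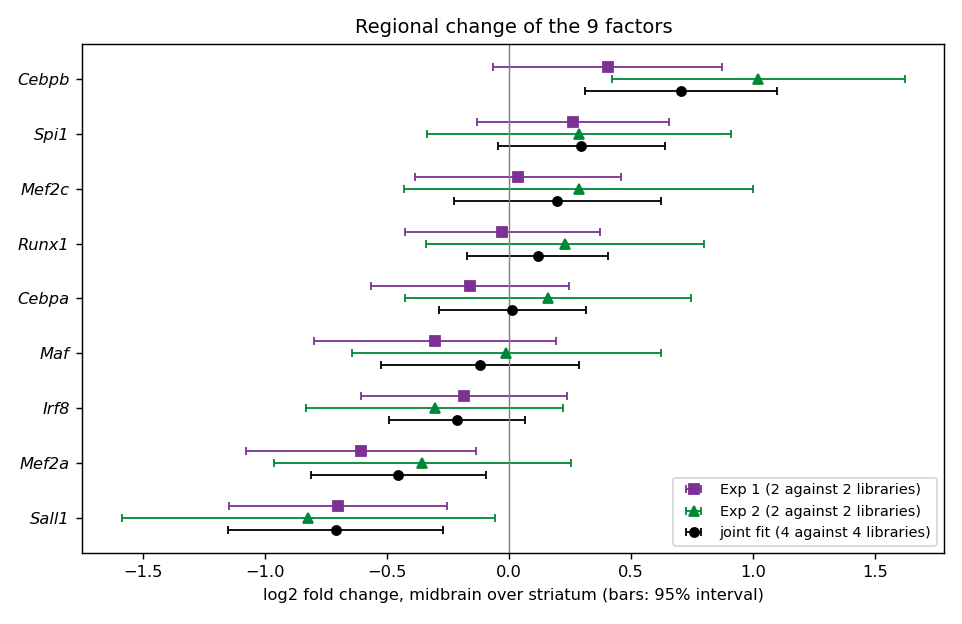
Log2 fold change of midbrain over striatum for each factor in Exp 1 (squares), Exp 2 (triangles) and the joint fit (circles), with 95% intervals from limma, ordered by the joint value. The joint intervals of Sall1, Mef2a and Cebpb leave out 0, and those of the other 6 factors cover it.

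Among the shared factors, Spi1 encodes PU.1, the ETS factor without which no macrophages form. Spi1 (ENSMUSG00000002111.8, chromosome 2, 91082390 to 91115756) was at 369 and 355 CPM in the midbrain and 325 and 264 CPM in the striatum of Exp 1, with every midbrain library above the striatum. In Exp 2 it was at 330.4 and 223 CPM in the midbrain and 245 and 189 CPM in the striatum, and the groups overlapped. Jointly, limma gave a log2 fold change of 0.30 (SE 0.16, adjusted p = 0.417), with a 95% interval of −0.05 to 0.64, which leaves out a fall of the size seen for Sall1. Without replicate 1 of the midbrain in Exp 2 the joint value was 0.17.

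Irf8, an interferon regulatory factor that partners PU.1 and is needed for microglial numbers, was at 862 and 880.5 CPM in the midbrain and 882 and 1047 CPM in the striatum of Exp 1. The levels in Exp 2 were 622 and 675 CPM in the midbrain and 708 and 909 CPM in the striatum. The midbrain libraries were the lower ones in both experiments, with a joint log2 fold change of −0.21 (SE 0.13, adjusted p = 0.473) and an interval of −0.49 to 0.06.

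Runx1, a core factor of blood formation, was steady, between 180.05 and 239.7 CPM over the 8 libraries, a 1.33-fold range. Its 2 midbrain libraries lay at 205 and 209 CPM and its striatum libraries at 192 and 218 CPM in Exp 1. In Exp 2 the midbrain, at 200.1 and 239.7 CPM, was above the striatum, at 180.05 and 192 CPM. The joint log2 fold change was 0.12 with a 95% interval of −0.17 to 0.40.

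Maf, a large MAF protein of macrophages and lymphocytes, was at 105 and 123 CPM in the midbrain and 169 and 109 CPM in the striatum in Exp 1, and at 198 and 224 CPM against 173 and 280.1 CPM in Exp 2. Cebpa, a C/EBP factor of early myeloid cells, was at 228 and 241 CPM in the midbrain and 237 and 273 CPM in the striatum in Exp 1, and at 170.2 and 170.6 CPM against 137 and 177 CPM in Exp 2. The regions overlapped for both genes in both experiments. The joint log2 fold changes were −0.12 (interval −0.52 to 0.29) for Maf and 0.01 (interval −0.29 to 0.31) for Cebpa. Without replicate 2 of the striatum in Exp 1, Maf had a log2 fold change of −0.58 there and passed the cutoff (adjusted p = 0.0578), with 1 striatum library left, and without replicate 1 of that group it had −0.02 (adjusted p = 0.968).

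Cebpb, which encodes the C/EBP factor of inflammatory and stress responses, was the shared factor with the largest regional difference. Cebpb (ENSMUSG00000056501.3, chromosome 2, 167688915 to 167690418) was at 585.5 and 648.5 CPM in the midbrain and 392 and 523 CPM in the striatum of Exp 1. The Exp 2 levels were 604 and 652 CPM in the midbrain and 378 and 229 CPM in the striatum. The 4 midbrain libraries lay between 585.5 and 652 CPM, and every midbrain library was above every striatum library, an order that 1 of 9 factors showed in both experiments, against 9.06% of 14053 genes.

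For Cebpb the log2 fold change in Exp 1 was 0.40 with a standard error of 0.21 (adjusted p = 0.501). In Exp 2 the estimate was 1.02 with a standard error of 0.27, and an unadjusted p of 0.00325 in limma (adjusted p = 0.186). The joint value was 0.70 (standard error 0.18, 95% interval 0.31 to 1.10, adjusted p = 0.0931). Without the shallowest library, which leaves 1 striatum library in Exp 2, its p there was 0.0592, with a log2 fold change of 0.73. In Exp 1, again with 1 striatum library left, the log2 fold change was 0.65 without replicate 2 (p of 4.44e-05 in limma) and 0.17 without replicate 1 (p of 0.253). The adjusted p of the joint fit was 0.0292 without replicate 2 and 0.17 without replicate 1 of that group. Monocytes and neutrophils also transcribe Cebpb. The neutrophil sum over 12 markers was 1229 to 1593 CPM in the midbrain and 903 to 938 CPM in the striatum in Exp 1, and 4366 to 6803 CPM and 981 to 1057 CPM in Exp 2. The sum over 13 immediate early and dissociation genes was 19406 to 22910 CPM in the midbrain and 13953 to 23008 CPM in the striatum in Exp 1, and 22355 to 24477 CPM and 11611 to 12063 CPM in Exp 2. The part of these cells, and of the dissociation genes, in the result was not tested. Cebpb shares 312 exon bases with the antisense gene Tmem189, and reads there were assigned to neither.

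For no factor did the test of a difference in regional change between the experiments pass. The adjusted p of the interaction of region and experiment was at least 0.861 for all 9 (limma), and 0% of 14053 genes had an adjusted p under 0.05. Without adjustment 0 of 9 factors were under 0.05, against 5.49% of genes. The intervals were wide, from −1.04 to 0.81 for Sall1 and from −0.17 to 1.30 for Cebpb.

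Sall1 was then set against each shared factor inside a library, where scaling between libraries cancels. The ratio of Sall1 to Spi1 was 0.425 and 0.474 in the midbrain and 0.695 and 1.10 in the striatum of Exp 1. In Exp 2 it was 0.278 and 0.748 in the midbrain and 0.728 and 1.52 in the striatum, where replicate 3 of the midbrain lay just above replicate 1 of the striatum. On the scale of log2 (CPM + 1), the ratio was lower in the midbrain by 0.96 in Exp 1 and by 1.20 in Exp 2. The mean of these differences, −1.08, did not pass a two-sided exact permutation test that kept the experiments apart (p = 0.111 over 36 labelings, which cannot go below 0.0556).

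Set against the shared factors, Sall1 had a lower log2 ratio in the midbrain for 6 of 6. Sall1 lay at percentile 3.18 of the joint log2 fold changes, so most genes would give this direction. The differences ran from −1.10 (Cebpb) to −0.39 (Maf) in Exp 1 and from −1.95 (Cebpb) to −0.55 (Irf8) in Exp 2. The midbrain was wholly below the striatum for 5 of 6 in Exp 1, for 5 of 6 in Exp 2 and for 4 of 6 in both. Over the ratios of Sall1 to all 14052 other genes tested, the same held for 80.4% in Exp 1, 51.6% in Exp 2 and 43.7% in both, a share computed after the ratios were seen. These ratios share the levels of Sall1 and are not independent of each other. Against Mef2a the difference was −0.09 in Exp 1 and −0.49 in Exp 2, and against Mef2c −0.73 and −1.07.

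**Figure D3:**
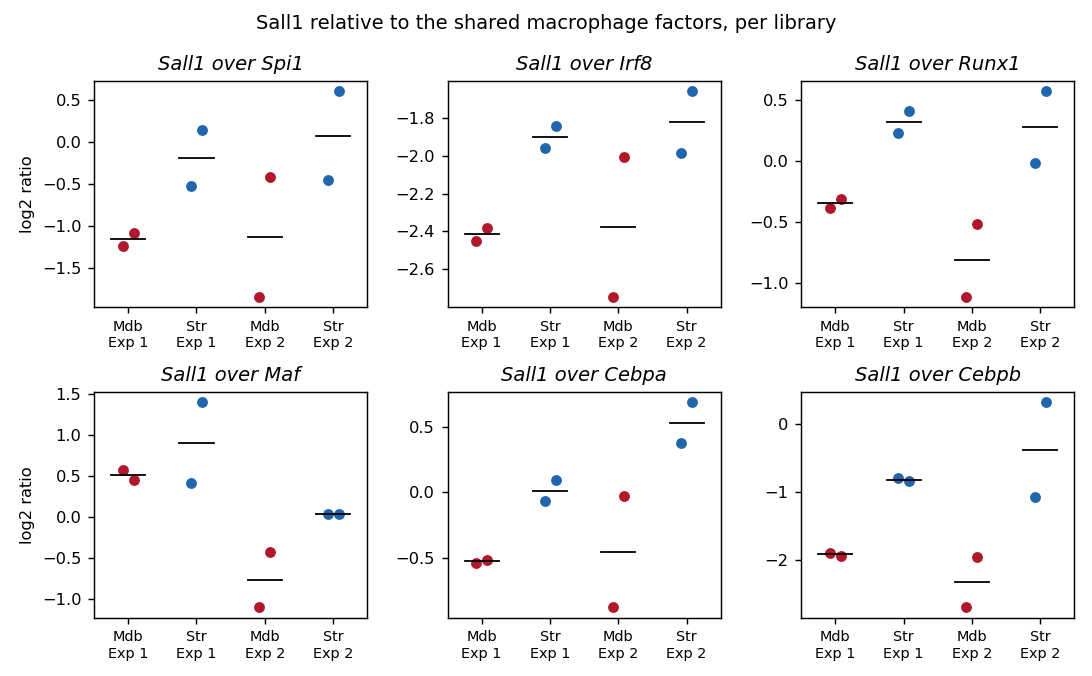
Log2 ratio of Sall1 to each of the 6 shared factors in each library (points; red midbrain, blue striatum; the line is the mean of 2 libraries). In both experiments the midbrain points lie wholly below the striatum points for Irf8, Runx1, Cebpa and Cebpb, whereas they overlap for Spi1 in Exp 2 and for Maf in Exp 1.

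Across the 8 libraries, Sall1 and Spi1 ran opposite to each other. In 4 of 4 groups the library with more Sall1 held less Spi1. After the mean of each experiment was subtracted, Pearson's r of their log2 CPM was −0.97, the 12th lowest among the 7036 genes that reached 10 counts in all 8 libraries. Irf8 and Mef2a followed Sall1, with r of 0.91 each, and Cebpb ran against it (r = −0.75). For Runx1, Mef2c, Maf and Cebpa, r was −0.07, −0.31, 0.43 and 0.28. Within groups the library with more Sall1 also held more Irf8, Mef2a, Runx1 and Cebpa in 4 of 4, more Maf and Cebpb in 3 of 4, and more Mef2c in 2 of 4. These values describe 8 libraries that share the difference between the regions, and r above 0.9 with Sall1 was reached by 390 genes (5.54%) and r below −0.9 by 144 (2.05%). The depth of the libraries also moved with Sall1 (r = −0.64), and its part in these relations was not tested.

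**Figure D4:**
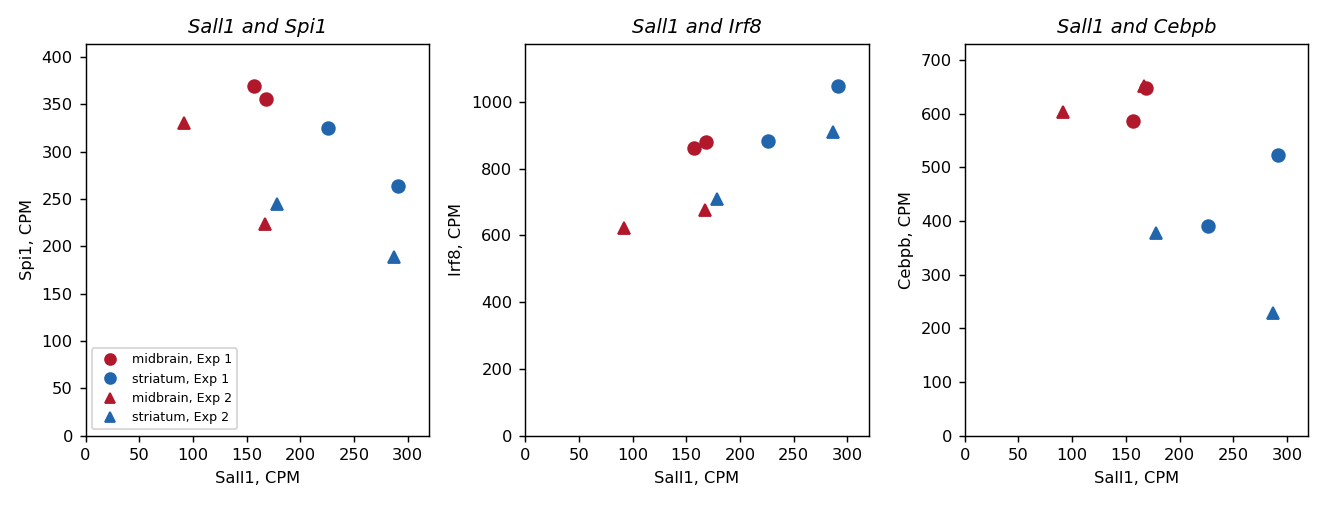
CPM of Spi1, Irf8 and Cebpb (vertical axes) against CPM of Sall1 (horizontal axis) in the 8 libraries, with circles for Exp 1 and triangles for Exp 2, red for the midbrain and blue for the striatum. Irf8 rises with Sall1 from library to library within each experiment, whereas Spi1 falls with it throughout Exp 1 and, but for 1 step (223 to 245 CPM), in Exp 2.

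The genes most like Sall1 by the same measure were Reep3 (r = 0.994), which encodes a protein of the endoplasmic reticulum, Acvr1 (0.993), a receptor of the BMP and activin family, Snx18 (0.992), a sorting nexin, Irf5 (0.992), an interferon regulatory factor, and Frmd4a (0.991), a scaffold protein. Acvr1 was at 25.3 and 30.3 CPM in the midbrain and 39.8 and 58.4 CPM in the striatum in Exp 1, and at 16.3 and 40.8 CPM against 38.2 and 80.8 CPM in Exp 2. As for Sall1, its lowest level was in replicate 1 of the midbrain in Exp 2. The genes most like Spi1 were S100a13 (r = 0.989), Pfdn6 (0.981), Znhit1 (0.980), Aprt (0.971) and Amz2 (0.969).

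Levels also differed between the experiments. In the joint fit, the coefficient of the experiment, which was examined after the values were seen, had an adjusted p under 0.05 for 2 of 9 factors, against 10.5% of 14053 genes (limma). For Maf the log2 difference of Exp 2 from Exp 1 was 0.76 (SE 0.19, adjusted p = 0.0283), with every library of Exp 2 above every library of Exp 1. Cebpa was lower in Exp 2, with a log2 difference of −0.60 (SE 0.14, adjusted p = 0.0237), again without overlap. The experiments are separate sets of mice and libraries, so a difference between the mice and one between the preparations cannot be told apart.

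Of 27 paralogs of the 9 factors, 20 were tested in the joint fit, with a median log2 fold change of 0.08, and 1 was called, higher in the midbrain, against 0.975% of genes. That was Irf7, the interferon-induced regulator of type I interferon genes, at 86.3 and 57.6 CPM in the midbrain and 29.8 and 40.7 CPM in the striatum in Exp 1, and at 115 and 93.7 CPM against 25.5 and 13.7 CPM in Exp 2 (joint log2 fold change 1.38, SE 0.27, adjusted p = 0.041).

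Irf5 had a joint log2 fold change of −0.40 (SE 0.15, adjusted p = 0.232). The largest values in the other direction belonged to Cebpe, a factor of granulocyte maturation, at 2.24 (adjusted p = 0.0692), and Runx2, best known from bone, at 1.64 (adjusted p = 0.14). Both were rare, with at most 6.73 CPM for Cebpe and 9.28 CPM for Runx2 in any library, and Cebpe had no count in the shallowest one.

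All 19 other macrophage factors were tested, with a joint median of −0.11, and 1 was called, higher in the midbrain, against 0.975% of genes. Ets2, an ETS factor downstream of Ras signalling, was at 151 and 148 CPM in the midbrain and 58.4 and 103 CPM in the striatum in Exp 1, and at 261 and 174 CPM against 53.8 and 37.8 CPM in Exp 2. Jointly, limma gave a log2 fold change of 1.36 (SE 0.27, adjusted p = 0.041). Bhlhe40, a clock-linked repressor induced on activation, had 1.34 (adjusted p = 0.154). At the other end were Hhex, a homeobox factor, with −0.89 (adjusted p = 0.179), and Fli1, an ETS factor of blood and endothelium, with −0.85 (adjusted p = 0.23). Ikzf1 and Lmo2, both of blood cell development, were called lower in the midbrain of Exp 1 (log2 fold change −0.83 and −0.70). They were 2 of 19, against 0.548% of genes. In Exp 2, where neither was called, they had 0.09 and −0.54 (difference between experiments, adjusted p = 0.86 and 0.957 in limma).

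Of 8 factors that mark macrophages of other tissues, 5 were tested in each fit. Gata6 of peritoneal macrophages, Spic of red pulp macrophages and Rarb did not pass the filter. In Exp 1, Exp 2 and the joint fit, 0 of 5 were called, against 2.64%, 3.47% and 1.06% of genes. The joint log2 fold change was positive for 5 of 5, with a median of 0.47. It ran from 0.05 for Rxra and 0.27 for Id1 to 0.70 for Id3 and 0.79 for Pparg. The adjusted p was 0.23 to 0.926 for these 4 (limma). In Exp 2 the log2 fold change was negative for 1 of 5 (Rxra, −0.28).

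**Figure D5:**
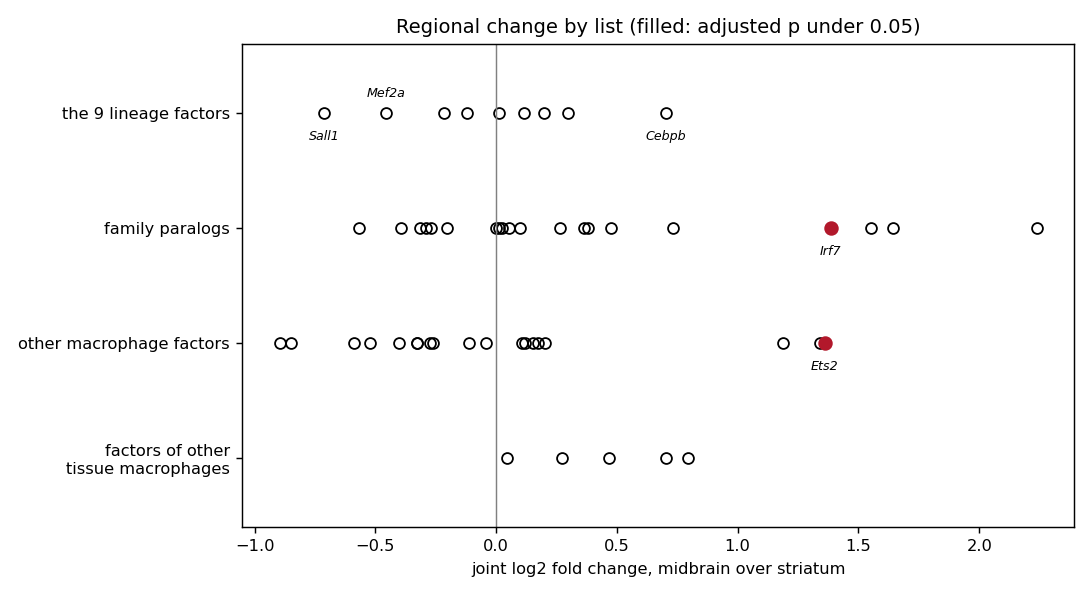
Joint log2 fold change of midbrain over striatum (horizontal axis) for the 9 lineage factors and for the tested members of 3 further lists, 1 point per gene. Filled points, Irf7 and Ets2, have an adjusted p under 0.05, and no lineage factor is filled.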

How the data were processed

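Bulk MARS-seq libraries of CD11b-positive cells were examined, 8 of 10 being assigned to a region. Per the labels and the study's methods, the authors aligned reads with STAR 2.5.3a to GRCm38 and counted exonic reads per gene with featureCounts 1.6.0 under Gencode annotation. The deposited files hold these raw counts, 1 column per library, and their headers name no strand or multimapping option. Of 53715 gene identifiers, 53620 were matched to symbols. No molecular identifiers were used in the counts, so limits from depth cover counting error only: 3 counts, the limit that a count of 0 allows, equal 0.351 to 5.16 CPM.

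Genes with fewer than 6 counts in over 50% of the libraries of a fit were dropped. The rest were scaled with TMM factors (edgeR 4.0.16), transformed with voom and tested with limma 3.58.1 in R 4.3.3, midbrain against striatum, within each experiment and jointly with the experiment as covariate, with Benjamini-Hochberg adjustment over all genes. Positive log2 fold changes are higher in the midbrain. Ratios used log2(CPM + 1) and an exact permutation test. The alternatives included edgeR's quasi-likelihood test, DESeq2 1.42.0, other filters and scaling, thinning, quality weights and a replicate block. The scripts were tested on simulated data. The 9 factors and the further lists were chosen with earlier results of these data known. The named genes of the further lists were those called in the joint fit, and those with the largest changes in each direction. Some of these genes are not reported here. Same-numbered libraries were not treated as pairs, because no label ties a number to a mouse. Their deviations from the group means had r = −0.04 in Exp 1 and 0.08 in Exp 2. With 2 libraries per group this is a single contrast per experiment, so it cannot settle whether they share a mouse.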

Additional observations from a re-analysis of the deposited data

Results flagged for a closer look

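The 2 libraries of Exp 2 whose title and file name give opposite regions were outside every comparison, and their levels are listed because all 9 factors were detected in them. The library titled as midbrain (1584013 counts) held 351 CPM of Sall1, 521 of Mef2a, 274 of Mef2c, 976 of Irf8, 203 of Spi1, 295 of Runx1, 410.2 of Maf, 182 of Cebpa and 464 of Cebpb. The library titled as striatum (5194739 counts) held 123 CPM of Sall1, 227 of Mef2a, 115 of Mef2c, 485 of Irf8, 239 of Spi1, 169 of Runx1, 153 of Maf, 100.4 of Cebpa and 588 of Cebpb. Sall1, Mef2a, Mef2c, Runx1 and Maf in the first were above every assigned library. Irf8, Mef2c, Runx1 and Cebpa in the second were below every one. These levels were scaled over all 10 libraries and the assigned levels over 8, so narrow gaps, as for Mef2c, cannot be read. No region was inferred from these values.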

How the results depend on the processing

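Sall1 kept its sign under every alternative run, but its side of the threshold in the joint fit did not hold. Its joint log2 fold change passed with DESeq2 (−0.74, adjusted p = 0.0463) and with the replicate block (−0.75, adjusted p = 0.0231 from limma). It also passed with the 2 unassigned libraries in the region opposite to their title (−0.90, adjusted p = 0.0255 from limma), where Exp 2 had −1.02. With 1 library left out it ranged from −0.89 to −0.57. Placement of the 2 unassigned libraries by title gave −0.30 (−0.056 in Exp 2). The joint fit called 2 of 9 factors with DESeq2, 1 with the replicate block, quality weights, thinning or the opposite regions, and 0 to 1 with 1 library left out. Cebpb passed in the joint fit with DESeq2 (0.74), quality weights (0.75) and thinning (0.85). In Exp 1, 2 factors were called with library size only or without a filter, and 0 to 4 with 1 library left out. In Exp 2, 2 were called with the replicate block, thinning or the opposite regions, 0 with the regions as titled, and 0 to 2 with 1 library left out. For none of these alternatives is the share of all genes called reported here, so these counts of factors cannot be set against it. Within an experiment, leaving out 1 library leaves 1 in its group, so those counts show only how far calls depend on a library. The log2 ratio of Sall1 to Spi1 was −1.17 with the opposite regions (exact permutation p = 0.0333), −0.59 with the regions as titled (exact permutation p = 0.267) and −1.43 to −0.72 with 1 library left out.

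Directions turned for 6 factors, none of them called where they turned. With the regions as titled, log2 fold changes were 0.071 (Exp 2) and 0.0051 (joint) for Irf8, 0.15 (Exp 2) for Mef2a, and 0.45 (Exp 2) and 0.16 (joint) for Maf. With the opposite regions they were −0.080 and −0.085 for Runx1, −0.20 and −0.11 for Mef2c, and −0.14 and −0.17 for Cebpa. Maf in Exp 2 was 0.058 without a filter and 0.036 with at least 10 counts in every library. Cebpa in the joint fit was −0.032 with library size only, −0.040 without a filter, −0.0024 with the replicate block and −0.037 with thinning. With 1 library left out, ranges that crossed 0 were −0.14 to 0.10 for Runx1 in Exp 1, −0.15 to 0.23, −0.19 to 0.68 and −0.031 to 0.32 for Mef2c in Exp 1, Exp 2 and jointly, −0.44 to 0.28 and −0.35 to 0.042 for Maf in Exp 2 and jointly, and −0.092 to 0.31 and −0.14 to 0.091 for Cebpa in Exp 2 and jointly. The cause of these shifts was not tested.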
